A study of Solanum lycopersicum with 6 samples.

Results

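The regions described here are the ATAC-seq peaks that lie in the outermost megabase at either end of the 12 tomato chromosomes. A peak belongs to the set when its midpoint lies below position 1000000, or within 1000000 bp of the last peak end of its chromosome, on build SL4.0. The rule uses position alone, so that the number, width, strength and spacing of the peaks are measurements it did not use. It selected 6968 peaks, or 8.63% of the 80696 peaks in the deposited list and 8.69% of the 80175 on the 12 chromosomes. The 24 terminal megabases are called starts where coordinates are low and ends where they are high. At the starts, distance was counted from the first base, and at the ends from the last peak, because chromosome lengths were not used. The true chromosome tip can thus lie beyond an end as used here, and the outermost position of every end holds a peak by construction.

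Accessibility was measured in inflorescences of tomato (Solanum lycopersicum) that carry the anantha-e1546 mutation in the M82 background. ANANTHA encodes an F-box protein that gives meristems their floral fate, and mutant inflorescences keep forming meristems where flowers would arise. The 6 samples, of 1 g of tissue each, form 1 group described as biological replicates, and no wild-type or other control group is among them. All 6 share a regime of 16 h of light and 8 h of dark. The authors deposited 1 list of peaks for all 6, so no value exists per sample, the error between plants is unknown, and sequencing depth cannot be read from the list. Errors below are the spread among chromosomes or chromosome ends.

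In ATAC-seq a transposase cuts DNA that is free of nucleosomes, and places with many cuts are called as peaks, most often at promoters and other regulatory sequence. Tomato chromosomes carry gene-rich euchromatin toward their tips and repeat-rich heterochromatin around their centromeres. At the very tip lies the telomere repeat, and many tomato chromosome ends hold arrays of a subtelomeric satellite next to it. The short arm of chromosome 2, at its start, carries the nucleolus organizer with the tandem ribosomal RNA genes. How reads that match several places were treated is not given in the sources used here, so a lack of peaks in repeats is a lack of calls. Genes and sequence at the positions given below were not analysed here, since the only gene table at hand describes a different assembly.

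Apart from the start of chromosome 2, the terminal megabases were densely filled with peaks. The other 23 held 302.4 ± 32.7 peaks per Mb (SD, n = 23), against 103.8 per Mb over the 12 chromosomes as a whole. The end of chromosome 7 was the densest, with 358 peaks (95% exact Poisson interval 321.9 to 397.1), followed by the end of chromosome 1 with 349 and the start of chromosome 12 with 344. The end of chromosome 9 had the fewest of the 23, with 247 (217.2 to 279.8), preceded by the start of chromosome 11 with 252 and the start of chromosome 9 with 264. These intervals cover counting error of independently placed peaks only. Peaks were clustered, as the step counts below show, so the intervals are too narrow and are not used to compare ends. Peaks covered 33.1% ± 4.98 of the sequence at these 23 ends, from 25.5% at the end of chromosome 9 to 41.6% at the end of chromosome 8. The start of chromosome 2 stood far below all others, with 13 peaks (6.92 to 22.2) that covered 1.14% of the megabase. Both ends of chromosome 9 were thus among the sparsest, while both ends of chromosomes 1 and 7 were among the dense ones.

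**Figure D1:**
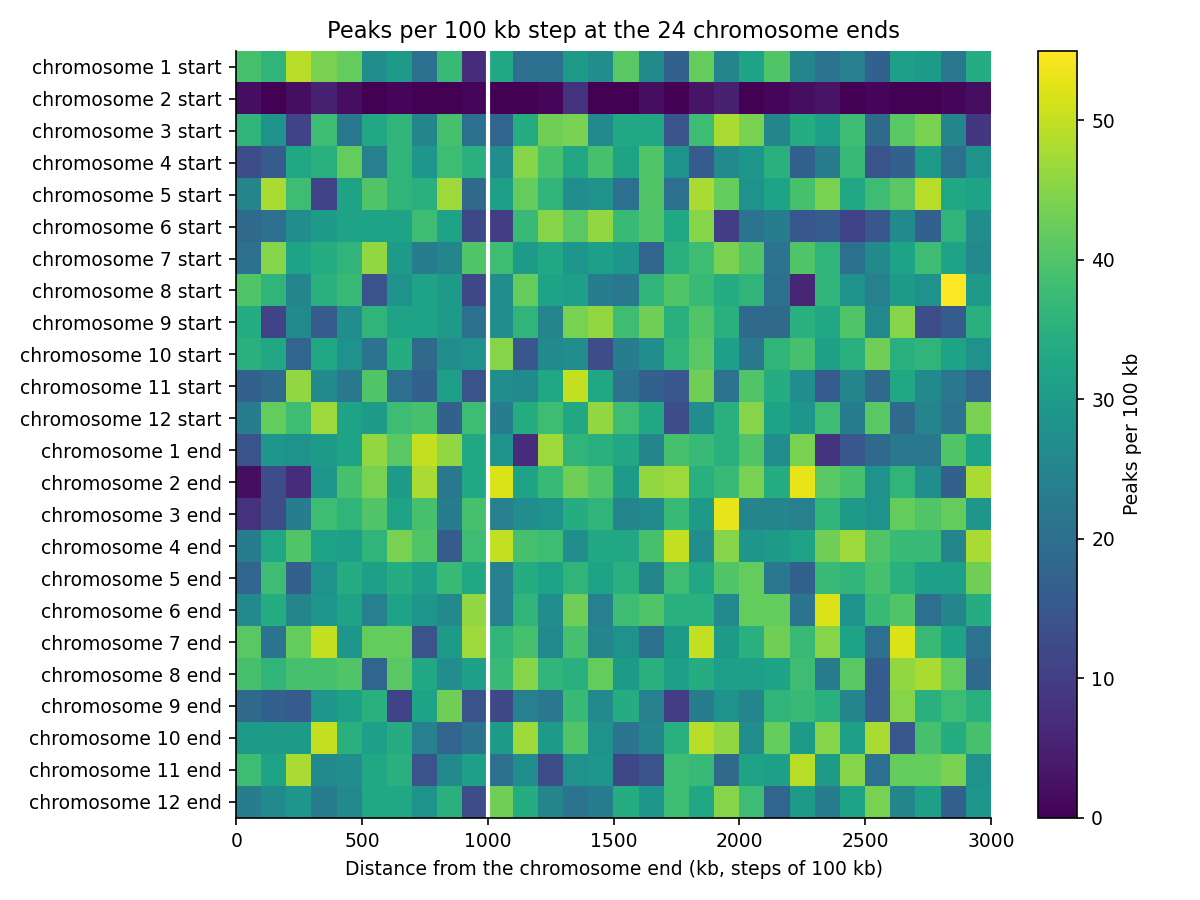
Peaks per 100 kb step (colour) against distance from the chromosome end in kb, for the 24 ends (rows), with a white line at 1000 kb. The start of chromosome 2 stays dark over all 3 Mb, and the outermost step of the end of chromosome 2, with 2 peaks, is the sparsest terminal step of the other ends.

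Within the terminal megabase, peaks came in dense and sparse steps of 100 kb. The mean number of peaks per step over the 23 ends was 25.3 ± 11.02 (SD) in the outermost 100 kb, 28.5 ± 10.6 in the second step and 29.9 ± 11.5 in the third. It lay between 30.0 and 33.1 in the 6 steps that follow and was 27.1 ± 11.9 in the innermost. The first step beyond the limit of 1 Mb held 29.8 ± 10.9, which is within the spread of the last step inside it. The densest steps held 50 peaks each, at chromosome 1 from 89997192 to 90097191, at chromosome 7 from 67481390 to 67581389 and at chromosome 10 from 64384560 to 64484559. They lay in step 8 from the end on chromosome 1 and in step 4 on the other two. The sparsest steps were 4 of the start of chromosome 2 with no peak at all. Among the other ends, picked after the values were seen, the end of chromosome 2 had 2 peaks in its outermost 100 kb, and the start of chromosome 1 had 7 between 900001 and 1000000. The ratio of variance to mean of the 10 step counts was above 1, the value for independently placed peaks, at every end and ran from 1.37 at the end of chromosome 6 to 9.02 at the end of chromosome 2.

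In the outermost 100 kb the SD of the covered share over the 23 ends was 16.1 percentage points, the largest of the 30 steps counted over 3 Mb, while the SD of its peak number was not, at 11.02 against 11.9 in step 10. The outermost step held fewer than 20 peaks at 9 of the 24 ends and 35 or more at 7 of them. At the end of chromosome 8 its 39 peaks covered 70.3% of the sequence, and at the end of chromosome 10 its 30 peaks covered 52.7%. At the end of chromosome 3 only 8 peaks covered 9.16%, and at the end of chromosome 2 the pair of peaks covered 0.79%. At both of these sparse ends the shortage reached further in: the outermost 300 kb held 22 peaks at the end of chromosome 2 and 44 at the end of chromosome 3, against 118 at the end of chromosome 11 and 124 at the start of chromosome 1. The end of chromosome 2 thus reached its 267 peaks mostly in the inner 700 kb of the terminal megabase.

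With both ends of a chromosome averaged, the outermost 100 kb had 243.3 ± 91.0 peaks per Mb and the rest of the terminal megabase 295.6 ± 52.8 (SD, n = 12). The difference of -52.2 per Mb (95% interval -98.2 to -5.44) was negative on 9 of 12 chromosomes. It did not pass after adjustment over the 20 tests made (two-sided exact permutation of the signs of the 12 differences, p = 0.035, Benjamini-Hochberg adjusted p = 0.15). Here and below, the exact permutation test is of this kind, intervals of differences come from inverting this test and are not adjusted, and the p measures the spread among chromosomes of 1 list, not among plants. With an outermost step of 50 kb the difference was -80.2 per Mb, negative on 10 of 12 chromosomes (exact permutation test, adjusted p = 0.088). At the starts the outermost step includes the sequence before the first peak, a median of 17306 bp. By construction this lowers its density, and more so in a step of 50 kb. On chromosome 2 the first peak began at 67986, so the 50 kb step of its start is empty. The covered share was 28.6% ± 14.3 in the outermost 100 kb and 32.2% ± 6.55 in the rest, a difference of -3.53 percentage points (adjusted p = 0.53 in the same exact test). It was -7.81 points with a step of 50 kb, -2.28 with the starts counted from their first peak, -2.06 without chromosome 5 and -6.32 without chromosome 8, and passed under none of these. Counted over single ends, 15 of 24 were less dense in the outermost 100 kb than in their own remaining 900 kb, 6 starts and 9 ends.

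**Figure D2:**
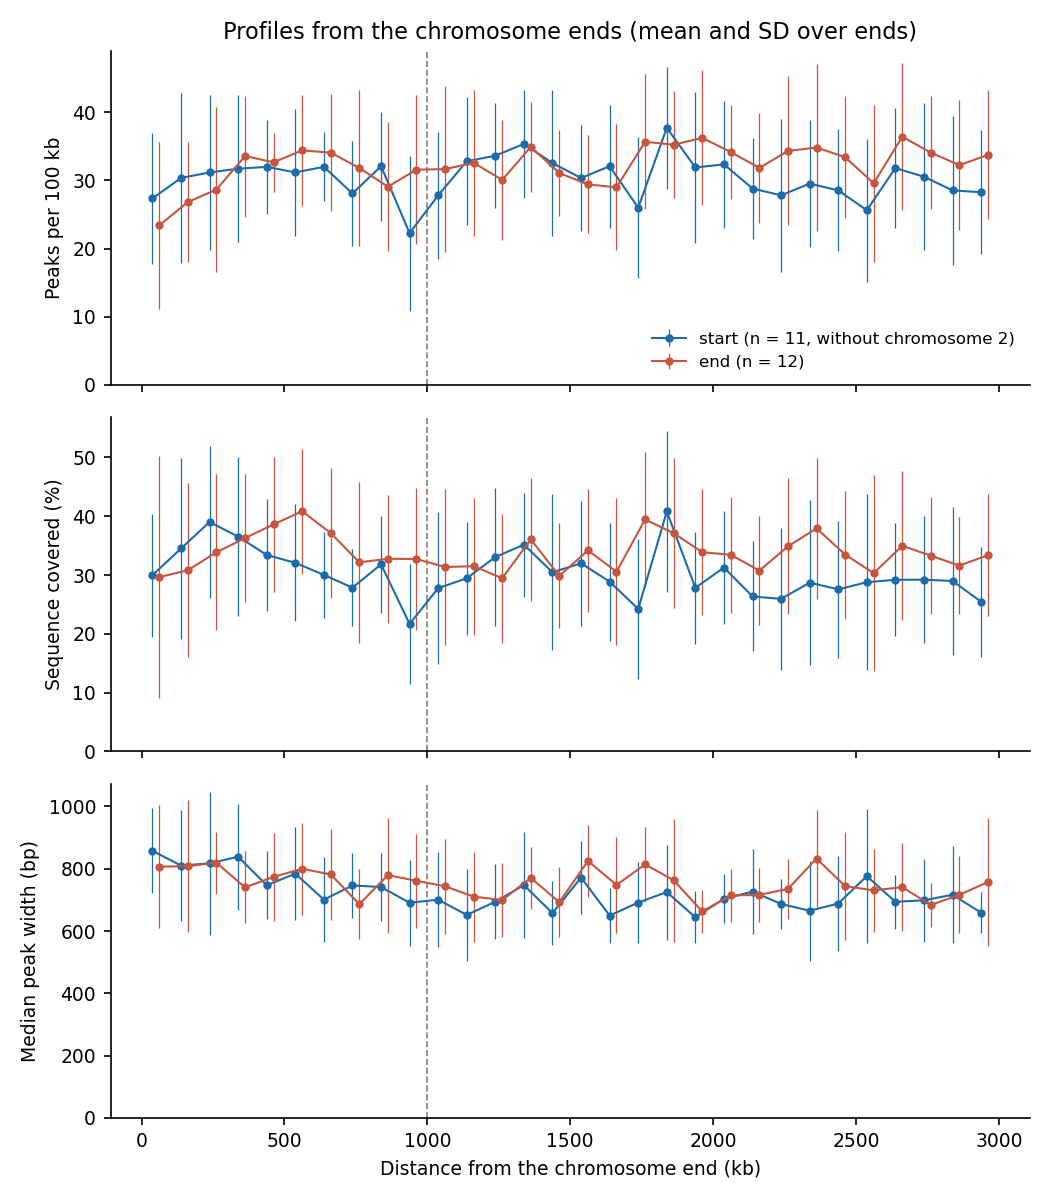
Mean and SD over chromosome ends of the peaks per 100 kb, the sequence covered in percent and the median peak width in bp, against distance from the end in kb, for 11 starts (blue, without chromosome 2) and 12 ends (orange); the dashed line marks 1000 kb. The outermost step has 27.4 peaks at the starts and 23.4 at the ends, and the SD bars of neighbouring steps overlap throughout.

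The question put to the terminal megabase was whether it differs from the 2 Mb just inside it. In peak number no difference passed the adjusted test. The terminal megabase held 290.3 ± 53.6 peaks per Mb and the second and the third megabases together 306.0 ± 38.0 (SD, n = 12 chromosomes, both ends averaged). The difference was -15.7 per Mb (95% interval -33.7 to 3.63), with 10 of 12 chromosomes lower in the terminal megabase (exact permutation test, p = 0.098, adjusted p = 0.33). With peaks of q 0.01 or less it was -20.9 per Mb, negative on 11 of 12 chromosomes (exact permutation test, p = 0.014, adjusted p = 0.14). Without chromosome 1 it was -22.0 (exact permutation test, adjusted p = 0.065), and without chromosome 2 it was -11.8 (exact permutation test, adjusted p = 0.30). Against the third megabase alone it was -11.2, with 6 chromosomes higher and 6 lower. Of single ends, 17 of 24 had fewer peaks per Mb in the terminal megabase. The greatest shortfall was 116 per Mb, at the end of chromosome 2, whose second and the third megabases held 399 and 367 peaks. The opposite was seen at the end of chromosome 1, where the terminal megabase exceeded the inner 2 Mb by 53.5 per Mb. Over the 23 ends without the start of chromosome 2, the terminal density and that of the next 2 Mb had a Pearson's r of 0.29 and a Spearman's rho of 0.31, given as a description over ends of 1 list.

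The share of sequence covered by peaks was 31.8% ± 6.58 in the terminal megabase, against 30.3% ± 4.08 in the second and the third megabases, a difference of 1.54 percentage points (95% interval -1.02 to 4.09; exact permutation test, adjusted p = 0.37). The share was higher in the terminal megabase on 8 of 12 chromosomes and at 17 of 24 ends. The difference was 0.90 points without chromosome 1 and 0.89 points against the second megabase alone. It was 2.19 points without chromosome 2 and 2.18 points against the third megabase alone (exact permutation tests, adjusted p = 0.19 and 0.41).

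Of the measures compared, peak width had the smallest p, but it did not pass the adjusted test. The median peak was 751 ± 40.1 bp wide in the terminal megabase and 700.3 ± 21.8 bp in the second and the third (SD, n = 12). The difference was 50.6 bp (95% interval 20.5 to 80.9), positive on 10 of 12 chromosomes (exact permutation test, p = 0.0049, adjusted p = 0.098). Without chromosome 7 it was 56.5 bp and passed (exact permutation test, adjusted p = 0.039), and with peaks of a q at or below 0.01 alone it was 91.3 bp and passed (adjusted p = 0.039 in the same exact test). With peaks within 100 bp merged it was 50.8 bp with an adjusted p of 0.29 in the exact test. At single ends, 20 of 24 had the wider median in the terminal megabase. The start of chromosome 10 had the widest median, 862.5 bp against 681 bp in its next 2 Mb, and the end of chromosome 4 followed with 844 against 735 bp. The 4 exceptions were the starts of chromosomes 2 and 6 and the ends of chromosomes 5 and 7. The end of chromosome 7, the densest of all, had a median of 714.5 bp against 791 bp further in.

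Both quartiles of the width distribution lay in the same order as the medians. The upper quartile of peak width over all 24 ends was 1306 ± 134.4 bp in the terminal megabase and 1178 ± 90.1 bp in the next 2 Mb (SD over ends, n = 24), higher at 20 ends, and the lower quartile was 471 ± 31.9 against 447 ± 20.4 bp, higher at 18 ends. Peaks of 2 kb or more made up 12.4% of the terminal peaks and 9.94% of those in the next 2 Mb, and peaks of 250 bp or less 3.49% and 4.97%. These shares pool the peaks of all ends and are given without a test. Taken end by end, the share of peaks of 2 kb or more was larger in the terminal megabase at 16 of 24 ends. Very wide peaks of 5 kb or more numbered 93 in the terminal megabases (1.33%), against 0.81% in the next 2 Mb and 0.84% on the 12 chromosomes. The end of chromosome 8 held 9 of the 93, and 3 ends held none.

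By distance, the pooled median width was 830 bp in the outermost 100 kb, 800.5 bp in the second step and 763 bp in the third, and 714 bp in the tenth. From 1 to 3 Mb the steps lay between 656 and 779 bp. Per chromosome, the median was 835 ± 138.4 bp in the outermost 100 kb and 736.8 ± 55.3 bp in the rest of the terminal megabase (SD, n = 12). This difference of 98.2 bp (95% interval 10.5 to 186.0; exact permutation test, p = 0.027, adjusted p = 0.15) did not pass, and with an outermost step of 50 kb it was 28.6 bp (exact permutation test, adjusted p = 0.60). With peaks merged it was 155.3 bp (exact permutation test, adjusted p = 0.24). The widest medians of an outermost step were 1127 bp at the end of chromosome 8 and 1124 bp at the start of chromosome 4.

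**Figure D3:**
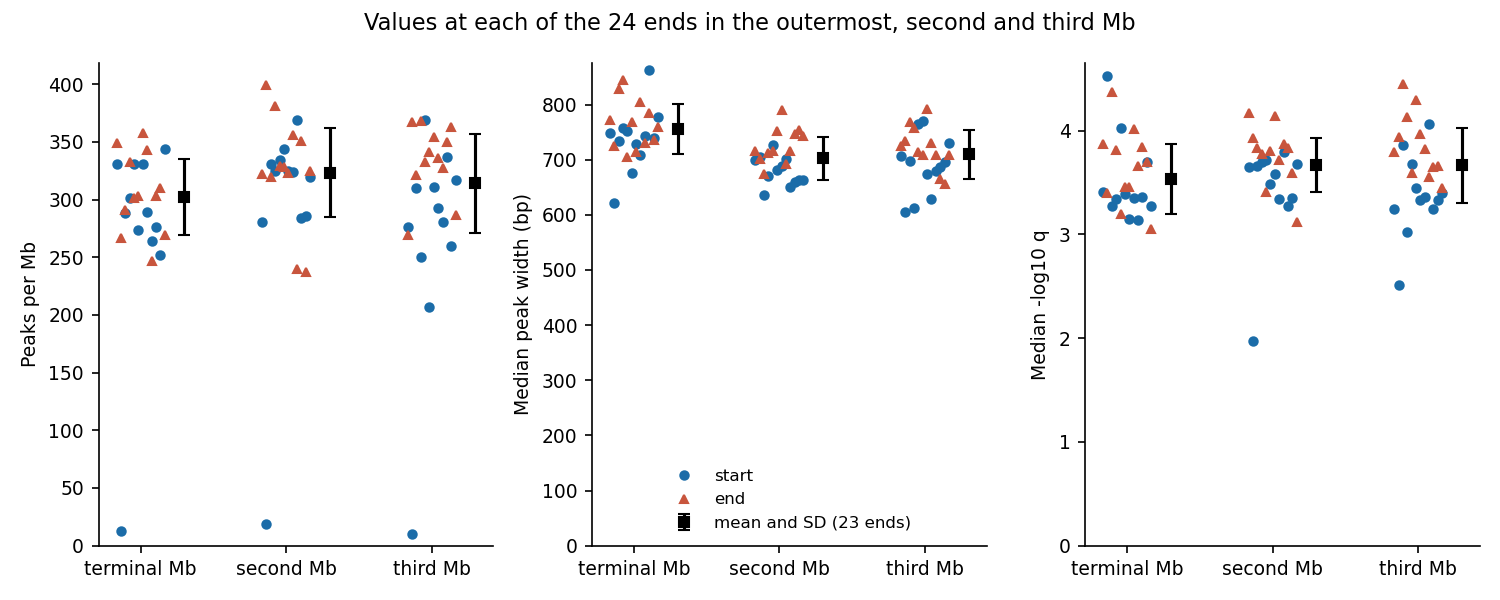
Peaks per Mb, median peak width in bp and median −log10 q in the terminal, the second and the third megabase; points are single chromosome ends (blue circles starts, orange triangles ends) and black squares with bars the mean and SD of the 23 ends other than the start of chromosome 2. The mean of the median widths is 756.5 bp in the terminal and 702.2 and 709.4 bp in the second and the third megabase, and the point groups overlap in every panel.

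Of 3 measures of peak strength, none passed the adjusted test between the terminal megabase and the next 2 Mb, and 1 of them passed without chromosome 2. The authors' −log10 q values rank peaks within this list, and the score has a cap of 1000 that most peaks reach. The median −log10 q was 3.57 ± 0.22 in the terminal and 3.61 ± 0.25 in the second and the third megabases (SD, n = 12), a difference of -0.034 (95% interval -0.24 to 0.20; exact permutation test, adjusted p = 0.86) that had no stable sign, being -0.12 without chromosome 2 and 0.13 with peaks of q 0.01 or less. Among the 23 ends it ran from 3.05 at the end of chromosome 12 to 4.38 at the end of chromosome 3. Peaks at the score cap made up 60.9% ± 3.04 of the terminal and 62.5% ± 3.39 of the inner peaks, with the lower value in the terminal megabase on 10 of 12 chromosomes (exact permutation test, adjusted p = 0.53). The difference of -1.56 percentage points became -2.96 without chromosome 2, negative on 10 of 11 chromosomes (exact permutation test, p = 0.0078, adjusted p = 0.052), and -0.51 with peaks of q 0.01 or less. At all 12 ends the terminal share at the cap was below that of the next 2 Mb, whereas the starts were evenly divided, 6 higher and 6 lower. Whether starts and ends differ in this was not tested.

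Weak peaks, those with a q above 0.01, made up 18.7% ± 1.45 of the terminal peaks and 17.2% ± 3.70 of the inner ones (exact permutation test, adjusted p = 0.37), higher in the terminal megabase on 10 of 12 chromosomes. The call depended on chromosome 2. Its start has few peaks, 13 in the terminal megabase and 29 in the next 2 Mb, of which 41.4% had a q above 0.01. Without chromosome 2 the difference was 2.42 percentage points instead of 1.50, was positive on 10 of 11 chromosomes and passed (exact permutation test, adjusted p = 0.039). At the end of chromosome 12 weak peaks were most frequent, at 24.5%, and at the end of chromosome 9 least, at 14.98%.

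The median distance between the midpoints of neighbouring peaks at the 23 ends was 1844 ± 111.5 bp in the terminal megabase and 1761 ± 80.4 bp in the next 2 Mb (SD, n = 23). It was shortest at the start of chromosome 12, with 1656 bp, and longest at the end of chromosome 12, with 2118 bp. Over the chromosomes, both ends averaged, the terminal value was higher on 10 of 12 (exact permutation test, p = 0.0098, adjusted p = 0.098). The mean difference of 991 bp is set by the start of chromosome 2, where the median was 24938 bp, and without chromosome 2 it was 81.7 bp (exact permutation test, adjusted p = 0.098). Without chromosome 7 it was 1089 bp and passed (exact permutation test, adjusted p = 0.039), again with a mean set by the start of chromosome 2. The difference of chromosome 2 is so large that its sign decides that of every permuted mean. This lowers the p, which was 0.0098 with chromosome 2 and 0.0195 without it (exact permutation tests), so no conclusion is drawn from this pass. Against the third megabase alone the mean difference was 8.31 bp, higher on 7 of 12 chromosomes (exact permutation test, adjusted p = 0.93), and with peaks of q 0.01 or less its sign turned, to -366 bp. A neighbour within 100 bp, edge to edge, was present for 41.0% ± 5.69 of terminal and 41.9% ± 2.59 of inner peaks (exact permutation test, adjusted p = 0.86). That share ran from 30.7% at the end of chromosome 6 to 53.5% at the start of chromosome 7 among the 23 ends.

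The starts and the ends of the same chromosomes were also compared. Starts include the sequence before their first peak, a median of 17306 bp, while ends begin at a peak. By construction this favours the ends in density and covered share. The ends held 306.2 ± 34.8 peaks per Mb and the starts 274.5 ± 87.6 (SD, n = 12), a difference of 31.7 (95% interval -10.0 to 83.2; exact permutation test, adjusted p = 0.37). Without chromosome 2 it was 11.5 (exact permutation test, adjusted p = 0.45). On 9 of 12 chromosomes the end was denser, and the exceptions were chromosomes 5, 9 and 12. The greatest contrast after chromosome 2 was on chromosome 12, whose start held 344 peaks and whose end held 269. The ends were covered by peaks over 34.5% ± 5.21 of their length and the starts over 29.1% ± 9.80, a difference of 5.35 percentage points (95% interval 0.27 to 10.9; exact permutation test, p = 0.038, adjusted p = 0.15). Without chromosome 2 that difference was 3.45 points (exact permutation test, adjusted p = 0.19). On chromosome 8 the share was 28.4% at the start and 41.6% at the end. Median width, at 764.5 ± 44.8 bp in the ends and 737.3 ± 57.2 bp in the starts, and median −log10 q, at 3.65 ± 0.37 and 3.49 ± 0.41, had no difference that passed (exact permutation tests, adjusted p = 0.37 and 0.53). The width difference of 27.1 bp was 63.5 bp with peaks within 100 bp merged (exact permutation test, p = 0.032, adjusted p = 0.19) and 48.3 bp with peaks of q 0.01 or less (exact permutation test, p = 0.039, adjusted p = 0.19). The difference in −log10 q of 0.16 was 0.28 without chromosome 2, 0.28 with peaks merged, 0.25 without chromosome 5, 0.073 without chromosome 3 and 0.37 with peaks of q 0.01 or less, and passed under none of these.

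**Figure D4:**
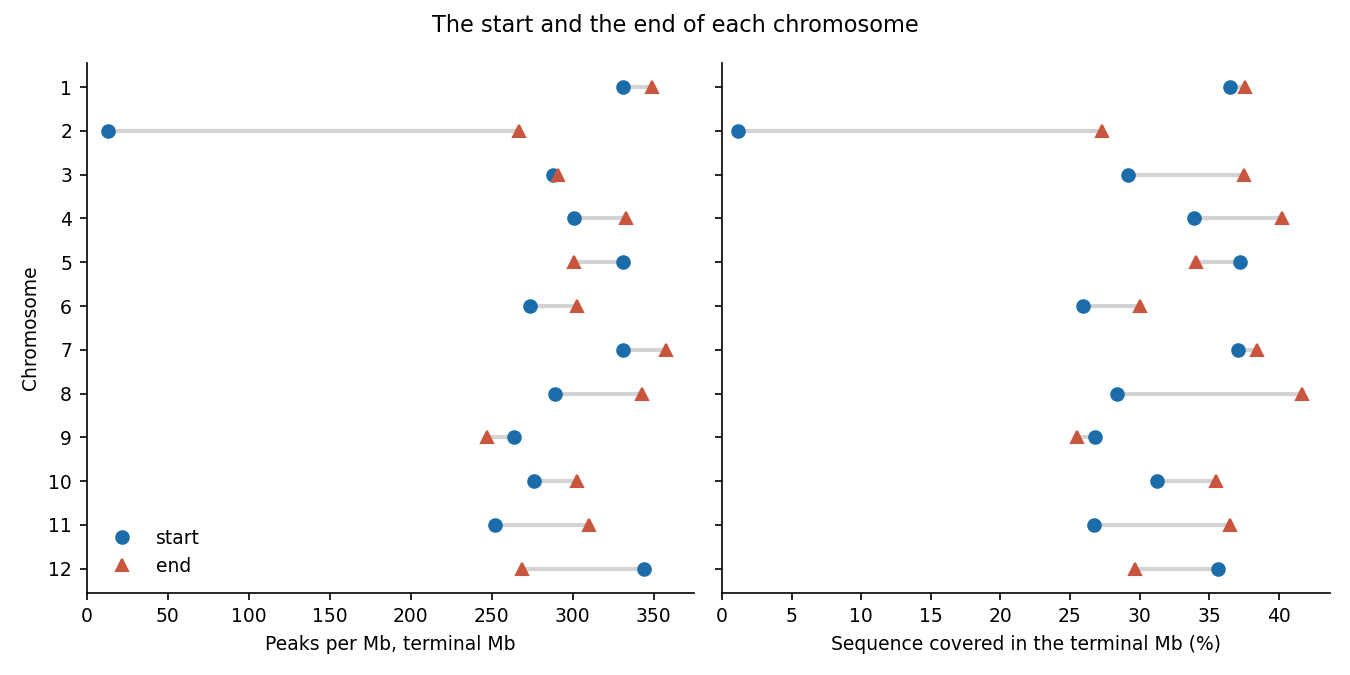
Peaks per Mb (left) and percent of sequence covered (right) in the terminal megabase of the start (blue circle) and the end (orange triangle) of each chromosome. On chromosomes 5, 9 and 12 the start lies above the end, and on chromosome 2 the start has 13 peaks against 267 at the end.

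The start of chromosome 2 was sparse as a whole and its peaks were not evenly placed. The peaks nearest the tip were at 67986 to 68848 and at 85505 to 86495. After a stretch of 161600 bp without a peak, from 86496 to 248095, another pair lay between 248096 and 249803. A further pair lay at 361980 to 362442 and at 362626 to 363053, with a −log10 q of 1.48 and 6.46. A cluster of 4 peaks between 394821 and 402614 held the strongest of the 13, at 395961 to 398468 with a −log10 q of 11.4, and the next strongest, at 401000 to 402614 with 8.93. Further in there were single peaks only, the last at 972245 to 972713, after the longest stretch without a peak in any terminal megabase, 311484 bp from 660761 to 972244. The next longest was also here, 172462 bp from 487855 to 660316. Of the 13 peaks, 76.9% were at the score cap, and their median −log10 q of 4.52 was the highest of the 24 ends, though it rests on few peaks. The second and the third megabases of this start held 19 and 10 peaks. At the other 23 ends the longest stretch without a peak had a median of 36358 bp, and the longest of all was 74309 bp at the end of chromosome 9, from 67766130 to 67840438.

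The first peak of a start lay at a median distance of 17306 bp from the first base. It began at 529 bp on chromosome 5, at 931 bp on chromosome 10 and at 1093 bp on chromosome 7, whereas chromosome 2 had none before 67986 and chromosome 3 none before 29114. The peak nearest the tip of chromosome 10 had the lowest −log10 q of the 24 outermost peaks, 1.28. The strongest outermost peak was that at the start of chromosome 9, from 5736 to 10337, with a −log10 q of 13.6 and a width of 4602 bp. Of the 24 outermost peaks, 15 were at the score cap and 6 had a q above 0.01, and their median width was 704 bp. Among all peaks on the 12 chromosomes, 61.6% were at the cap and 17.6% had a q above 0.01, and the median width was 700 bp.

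The strongest peak of the terminal megabases, at the end of chromosome 3 from 64706138 to 64720119, was also their widest, with 13982 bp and a −log10 q of 24.7. Its midpoint lay 582122 bp from the last peak end. The next in strength were at the end of chromosome 8 from 63159274 to 63163308 (23.1), at the start of chromosome 4 from 535589 to 539704 (22.5), at the end of chromosome 10 from 64726701 to 64733915 (22.0) and at the start of chromosome 11 from 269122 to 270163 (21.9). The last of these was the narrowest of the 5, with 1042 bp, and the peak of chromosome 10 lay nearest a tip, its midpoint 54251 bp from the last peak end. After the peak of chromosome 3, the widest were at the end of chromosome 11 from 54243210 to 54255758, with 12549 bp, and at the end of chromosome 9 from 68219215 to 68230838, with 11624 bp. The end of chromosome 9 thus held one of the widest peaks as well as the fewest peaks of the 23 ends.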

How the data were processed

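Nuclei of anantha-e1546 inflorescences were treated with the Nextera transposase and sequenced as paired reads of 50 bases, per the labels' protocols. Per the submitters' processing notes, Genrich 0.6, BWA, Trimmomatic, bedtools, SAMtools and Picard were used, in roles they do not record. The authors deposited 1 list of peaks for all 6 samples, with start, end, a whole-number score capped at 1000, and a −log10 q value held in the peak's name. Build SL4.0 is read from the chromosome names. The list's name was read as peaks called with q up to 0.5, and signal no more than 30 bp apart joined. The shortest gap between peaks was 31 bp, and 638 peaks on the 12 chromosomes had a q above 0.05. Peak number, width, spacing and the share with a close neighbour depend on these settings. Calling with other settings was not tried. How reads were shifted, deduplicated and filtered is not given in the sources used here.

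Positions are 1-based. Peaks were assigned to 1 Mb windows and 100 kb steps by midpoint, and covered sequence was clipped to the window. Spacing is between midpoints of neighbouring peaks inside a window. Of 20 tests, 8 measures were compared between the terminal and the next 2 Mb and between starts and ends, and 4 between the outermost 100 kb and the rest. Each was an exact two-sided permutation test that flips the signs of the differences of the 12 chromosomes, Benjamini-Hochberg adjusted over all 20 with a threshold of 0.05. The tests were also run on simulated data with independently placed peaks. These lack the clustering of the real peaks and a sparse start such as that of chromosome 2, so they cannot show how the tests behave under either. Counting intervals are exact Poisson at 95%. Regions named are the outermost peak of each end, the 5 strongest and 3 widest peaks, the 3 longest stretches without a peak, the densest and sparsest steps and the extreme ends. The set of peaks, the measures and the tests were chosen with earlier results of these data known. Peaks on unplaced sequence stayed outside. Software: scipy 1.17.1, pandas 2.3.3, numpy 2.4.6 and matplotlib 3.10.9 under Python 3.11.15.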

Additional observations from a re-analysis of the deposited data

Results flagged for a closer look

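Sequence not placed on a chromosome has no ends and was left out of every comparison, but it carried 521 peaks, a signal in data that the comparisons did not use.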

How the results depend on the processing

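None of the 20 adjusted tests passed as reported, and 5 had an unadjusted p at or below 0.05 in the exact permutation test. Of 336 distinct alternative values 319 kept their direction and their side of the threshold, 4 passed it and 13 changed sign. In 4 further cases the alternative itself fixes the share at 0, so it gave no value. Keeping peaks of q 0.01 or less gave a terminal difference in median width of 91.3 bp, which passed, in spacing of -366 bp, in −log10 q of 0.13 and in the share with a close neighbour (100 bp) of 0.89 points. Merging peaks gave a terminal difference in −log10 q of 0.022, and of 0.00095 for the outermost 100 kb. Without chromosome 2 the share with q above 0.01 differed by 2.42 points, which passed, the close-neighbour share by 0.92 points, and spacing between ends and starts by 56.6 bp. Against the third megabase alone the close-neighbour share differed by 0.19 points. With each chromosome left out in turn, the terminal difference ran from 43.3 to 56.5 bp in width, 0.90 to 2.19 points in covered share, -0.12 to 0.0058 in −log10 q, 1.15 to 2.42 points in the share with q above 0.01, -1.66 to 0.92 points in close neighbours and 81.7 to 1089 bp in spacing. In peak density the terminal difference ran from -22.0 to -11.8 per Mb. Width and spacing passed without chromosome 7, spacing with a mean set by the start of chromosome 2, and the share with q above 0.01 passed without chromosome 2. Between ends and starts it ran from -2091 to 56.6 bp in spacing and from -0.14 to 2.19 points in the share at the cap. The cause was not tested. Depth is unknown, so sequence without a peak is sequence without a call. The tests paired values within chromosomes. No analysis by sample was possible because the list pools the samples, and for that reason no replicate could be left out.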
